A study of Homo sapiens with 18 samples.

Results

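The question addressed here was whether a rescue with wild-type HOXB13 alters the transcriptional response to androgen. For every gene, the change with the synthetic androgen R1881 in cells rescued with wild-type HOXB13 (WT) was compared with the same change in cells rescued with an empty vector (EV). This difference of 2 responses rests on 12 of the 18 libraries of the study, chosen by their sample titles, in 4 groups of 3. They are EV with vehicle, EV with R1881, WT with vehicle and WT with R1881. All were LNCaP, an established human prostate cancer cell line, and all carried a short hairpin RNA against HOXB13. The rescue construct was expressed from an inducible system. Cells were deprived of steroids by 48 h in 2% charcoal-stripped serum. They were then treated for 24 h with ethanol at 0.1% (vehicle) or with R1881 at 10 nM. The other 6 libraries, labelled 3A, carried a HOXB13 in which alanine replaces 3 phosphorylated residues. They do not enter the difference and are used below as a further set of responses. No library without the hairpin was used. Of the 58735 genes in the count table, 17162 had enough counts to be tested.

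Androgens are steroid hormones that activate or repress genes through DNA elements. In prostate epithelium their targets include secreted kallikreins, transporters and enzymes of lipid and protein production. HOXB13 is a homeobox transcription factor of the prostate and distal colon that occupies many androgen-responsive regions together with FOXA1, and can act on androgen targets in either direction.

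The libraries held 22812641 to 28407161 counts each, and 2.71% to 5.70% of them came from mitochondrially encoded genes. Levels are given as CPM, that is, counts scaled to a common library size, after TMM scaling of the library sizes. Responses are log2 fold changes of R1881 over vehicle ± standard error, and a positive difference means that the response was more positive in WT. A gene was called at an adjusted p under 0.05. The 12 prostate luminal markers summed to 6005 to 6286 CPM in EV and 5625 to 5841 CPM in WT with vehicle. With R1881 they summed to 14013 to 15052 CPM in EV and 11392 to 11973 CPM in WT. Their sum was thus lower in WT at both treatments. By contrast, 10 of 10 immune markers stayed below 1 CPM in every library. Marker sums are plain CPM without TMM scaling. With vehicle the sum of 7 basal epithelial markers was 11.5 to 14.93 CPM in EV and 14.88 to 23.3 CPM in WT, which overlapped. With R1881 it was 10.9 to 12.5 CPM in EV and 22.9 to 24.3 CPM in WT, which did not overlap. DST carried most of the sum (9.05 to 19.99 CPM). KRT14 reached 3.201 CPM, ITGB4 3.77 CPM and NGFR 1.05 CPM. TP63 was at 0, and KRT5 and KRT15 reached at most 0.175 CPM. The sum of 6 endothelial markers was higher in WT at both treatments, 3.80 to 5.999 CPM in EV against 11.5 to 12.9 CPM in WT with vehicle and 3.43 to 4.20 against 5.98 to 6.86 CPM with R1881. Most of it was VWF, which was called higher in WT with vehicle (1.31 ± 0.18, edgeR adjusted p = 0.000397), and CDH5 was at 0 with PECAM1 at or below 0.0864 CPM. Fibroblast and smooth muscle markers summed to 17.3 to 32.5 CPM in EV and 18.1 to 30.8 CPM in WT, mostly COL1A1, with DCN at 0. TAGLN ran from 2.31 to 6.48 CPM and ACTA2 from 0.819 to 2.72 CPM, while COL3A1 and PDGFRB reached 1.13 and 1.04 CPM. The part of these markers in the results below was not tested. Between libraries of a group the chi-square per degree of freedom ran from 8.55 to 48.7, well above sampling noise. The labels do not say that replicates were separate cultures, so the p-values rest on differences among libraries that may be only technical.

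HOXB13 itself (ENSG00000159184, chromosome 17, 48724763 to 48729178, minus strand, hg38) did not separate the rescue states at the level of RNA with vehicle, and was lower in the WT libraries with R1881. It stood at 538, 497 and 564 CPM in EV and 529, 589 and 489.5 CPM in WT with vehicle, and these values overlapped. With R1881 it stood at 421, 405 and 424 CPM in EV and 358, 317 and 366 CPM in WT, and these values did not overlap. The response was -0.36 in EV and -0.63 in WT, a difference of -0.27 ± 0.16 (95% interval -0.59 to 0.05, edgeR adjusted p = 0.573). Gene counts do not separate reads of a rescue construct from those of the endogenous gene. The HOXB13 level therefore does not check the labels WT and EV, which are used below as the titles give them.

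Few genes met the threshold for a response that differed between WT and EV. By edgeR's quasi-likelihood test 34 of 17162 genes were called (0.198%), 13 with a more positive response in WT (0.0757%) and 21 with a more negative one (0.122%). At an unadjusted p under 0.05 there were 750 and 926 genes. R1881 itself changed far more genes, with 3450 called in WT (20.1%; 1882 higher, 11.0%, and 1568 lower, 9.14%) and 4336 in EV (25.3%). Differences between WT and EV were called for 132 genes with vehicle (0.769%) and for 1493 genes with R1881 (8.70%; 799 higher, 4.66%, and 694 lower, 4.04%). Of the 34 genes, 32 were protein-coding, and the absolute differences ran from 0.68 to 2.85 on the log2 scale. The count changed with single libraries, from 13 without EV R1881 library 2 to 52 without WT vehicle library 1. It also changed with the method, to 133 with the replicate number as a block, 151 by DESeq2 and 226 with no filter on low counts, against 21 with the 12 libraries alone. All 34 genes had the same direction in each of the 19 alternative analyses, and 12 of them kept their call without any 1 library. Those 12 are described first.

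**Figure D1:**
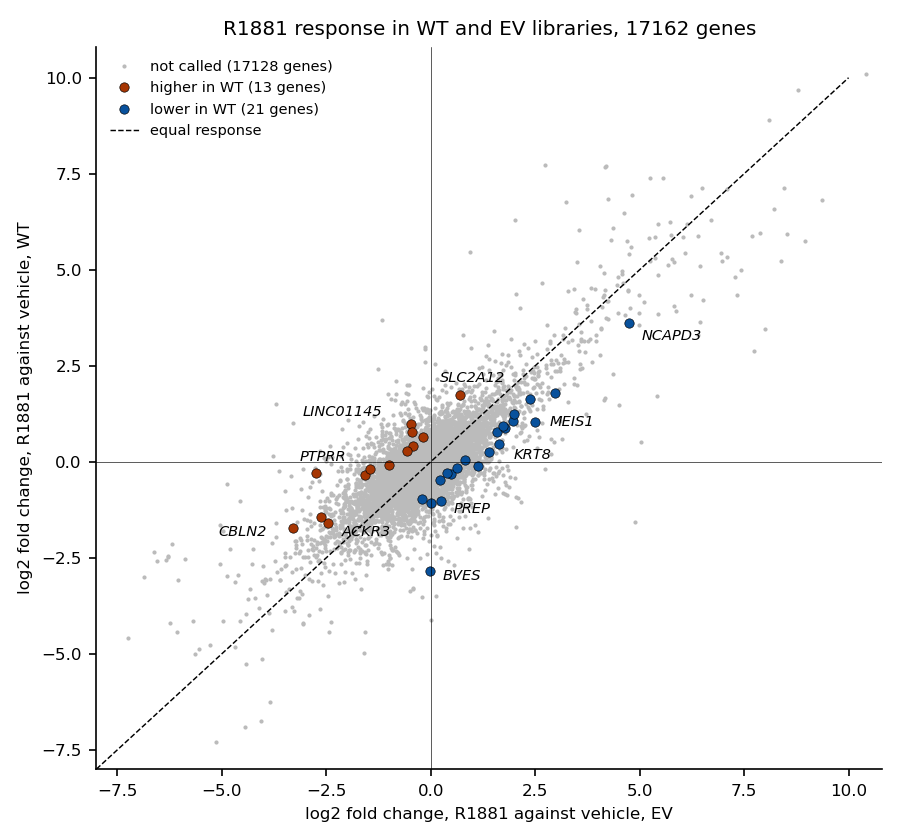
Log2 fold change with R1881 in EV (horizontal axis) and in WT (vertical axis) for each of the 17162 genes tested. Coloured points are the 34 genes called, 13 above and 21 below the dashed line of equal response. The called genes with the largest folds in EV are NCAPD3 on the right and CBLN2 on the left.

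PTPRR had the smallest p. It encodes a receptor-type tyrosine phosphatase that inactivates MAP kinases (ENSG00000153233, chromosome 12, 70638073 to 70920843, minus strand). Its level was 17.7, 16.5 and 19.0 CPM in EV vehicle libraries and 3.29, 2.29 and 2.33 CPM with R1881. In WT it was 20.003, 17.9 and 18.2 CPM with vehicle and 17.7, 15.5 and 12.2 CPM with R1881. The EV libraries with R1881 were thus the only ones of the 12 that stood low. PTPRR fell 6.70-fold in EV (-2.74 ± 0.18, edgeR adjusted p = 1.07e-10), while its response in WT was -0.30 ± 0.15 (edgeR adjusted p = 0.182). The difference between the responses was 2.44 ± 0.23 (95% interval 1.96 to 2.92, edgeR adjusted p = 1.60e-05).

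Other genes that R1881 lowered in EV fell less or were not called in WT. AIDA, an inhibitor of JNK signalling that binds axin (ENSG00000186063, chromosome 1, 222668013 to 222713210, minus strand), stood at 370.3, 330.5 and 284 CPM in EV with vehicle and at 130.2, 95.5 and 107 CPM with R1881. In WT it was at 456, 499 and 431 CPM with vehicle and 334, 415 and 344 CPM with R1881. Its response was -1.57 in EV and -0.34 in WT, a difference of 1.22 ± 0.19 (edgeR adjusted p = 0.00558). The response in WT did not pass the test (edgeR adjusted p = 0.0819), although the WT libraries with R1881 lay below those with vehicle.

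ACKR3, an atypical receptor that scavenges the chemokine CXCL12 (ENSG00000144476, chromosome 2, 236567787 to 236582358, plus strand), is a known androgen-repressed gene. It went from 227, 209 and 184 CPM to 42.2, 33.2 and 36.9 CPM in EV. In WT it went from 232, 228 and 220.5 CPM to 76.6, 69.3 and 79.2 CPM. The vehicle levels of the rescue states overlapped, and with R1881 every WT library was above every EV library. ACKR3 fell 5.53-fold in EV and 3.02-fold in WT, and the difference was 0.87 ± 0.13 (edgeR adjusted p = 0.00558). DGKH, a diacylglycerol kinase (ENSG00000102780, chromosome 13, 42040036 to 42256578, plus strand), had the same pattern. It stood at 174, 213 and 176 CPM in EV and 202, 172 and 141 CPM in WT with vehicle. With R1881 it was at 32.4, 27.7 and 31.2 CPM in EV and 66.2, 55.1 and 70.1 CPM in WT. DGKH fell by 2.63 in EV and by 1.43 in WT, a difference of 1.20 ± 0.19 (edgeR adjusted p = 0.00558).

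CBLN2, a secreted organiser of synapses (ENSG00000141668, chromosome 18, 72536680 to 72638521, minus strand), differed between the rescue states at both treatments. It was at 21.7, 20.04 and 17.98 CPM in EV and 80.8, 88.9 and 59.4 CPM in WT with vehicle. With R1881 it was at 2.12, 2.02 and 1.96 CPM in EV and 23.0, 23.8 and 22.4 CPM in WT. WT with R1881 therefore held CBLN2 slightly above the level of EV without it. CBLN2 fell 9.77-fold in EV and 3.31-fold in WT, and the difference was 1.56 ± 0.20 (edgeR adjusted p = 0.000563).

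The genes BVES and PREP lie close to each other on chromosome 6 and shared a pattern in which R1881 lowered the gene in WT and the response in EV was not called. BVES, a membrane protein with a cAMP-binding Popeye domain (105096822 to 105137174, minus strand), was low in EV, at 3.45, 2.25 and 1.48 CPM with vehicle and 1.89, 2.88 and 2.28 CPM with R1881. In WT it was at 76.2, 117 and 79.8 CPM with vehicle and at 11.996, 11.4 and 14.5 CPM with R1881. The 2 EV groups overlapped and the 2 WT groups did not. BVES fell 7.21-fold in WT (-2.85 ± 0.24, edgeR adjusted p = 7.94e-09), and the response in EV was -0.01 ± 0.31 (edgeR adjusted p = 0.993). The difference of -2.85 ± 0.39 was the largest in size among the 34 genes (edgeR adjusted p = 0.00144).

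PREP, a prolyl endopeptidase (105277565 to 105403084, minus strand), was at 57.2, 53.1 and 53.7 CPM in EV with vehicle and 65.4, 62.5 and 68.0 CPM with R1881. In WT it was at 152, 204 and 159 CPM with vehicle and at 81.0, 83.7 and 90.0 CPM with R1881. Its responses had opposite signs, 0.26 in EV (edgeR adjusted p = 0.0794) and -1.02 in WT (edgeR adjusted p = 2.06e-07). The difference was -1.28 ± 0.15 (edgeR adjusted p = 0.000234). POPDC3, the Popeye gene between them (105158280 to 105179995, minus strand), was too low for a firm value, with 0.379, 0.613 and 0.387 CPM in EV and 1.66, 3.51 and 2.04 CPM in WT with vehicle. Its difference was -1.49 ± 0.68 (edgeR adjusted p = 0.479). HACE1 and ATG5, further genes on a list of the locus, had differences of 0.16 ± 0.18 and 0.15 ± 0.15.

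FBXO7, the substrate receptor of an SCF ubiquitin ligase (ENSG00000100225, chromosome 22, 32474676 to 32498829, plus strand), differed only with vehicle by the calls. It was at 82.4, 69.2 and 77.1 CPM in EV with vehicle and 74.6, 79.0 and 75.2 CPM with R1881, and these values overlapped. In WT it was at 130.1, 169.7 and 157 CPM with vehicle and at 71.1, 69.1 and 78.8 CPM with R1881. FBXO7 fell 2.09-fold in WT, to the level of the EV libraries, and its response in EV was 0.00 ± 0.11. The difference was -1.06 ± 0.15 (edgeR adjusted p = 0.00192).

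ZYX encodes zyxin, a protein of focal adhesions (ENSG00000159840, chromosome 7, 143381080 to 143391111, plus strand). It stood at 91.8, 94.5 and 103 CPM in EV and at 125, 133 and 137 CPM in WT with vehicle. With R1881 it stood at 79.3, 88.9 and 82.4 CPM in EV and at 68.2, 69.2 and 64.9 CPM in WT. The order of the rescue states was thus reversed by R1881, with WT above EV in every vehicle library and below it in every R1881 library. The difference was -0.76 ± 0.12 (edgeR adjusted p = 0.00558).

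TBRG1 and GADD45G rose with R1881 in both states and less in WT. TBRG1, a growth inhibitor that interacts with the tumour suppressor ARF (ENSG00000154144, chromosome 11, 124622836 to 124635398, plus strand), was at 77.0, 74.9 and 80.0 CPM in EV and 128, 150.3 and 129.7 CPM in WT with vehicle. With R1881 it reached 229.9, 232 and 229 CPM in EV and 253, 211 and 230.4 CPM in WT, and these values overlapped. TBRG1 rose 2.98-fold in EV and 1.70-fold in WT (difference -0.81 ± 0.13, edgeR adjusted p = 0.00640). GADD45G, a stress-inducible activator of the p38 and JNK cascade (ENSG00000130222, chromosome 9, 89605013 to 89606555, plus strand), started from overlapping levels of 44.9, 38.7 and 50.6 CPM in EV and 37.2, 43.7 and 55.7 CPM in WT. It ended at 129.6, 139 and 149.9 CPM in EV and 60.5, 62.7 and 66.8 CPM in WT. GADD45G rose 3.12-fold in EV and 1.39-fold in WT (difference -1.16 ± 0.19, edgeR adjusted p = 0.00762).

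LINC01145, annotated as a transcribed unprocessed pseudogene (ENSG00000272419, chromosome 1, 145164099 to 145216058, minus strand), rose in WT. It was at 17.3, 16.7 and 10.9 CPM with vehicle and at 31.3, 29.4 and 28.3 CPM with R1881. In EV it was at 11.0, 14.9 and 11.8 CPM with vehicle and at 10.4, 8.94 and 7.59 CPM with R1881. The difference was 1.47 ± 0.25 (edgeR adjusted p = 0.00934). The value is uncertain, because reads of a pseudogene can be shared with its copies. TBRG1 is uncertain too, since 34.5% of its exon bases overlap SIAE on the other strand and the strand setting of the counting is not given in the sources used here.

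**Figure D2:**
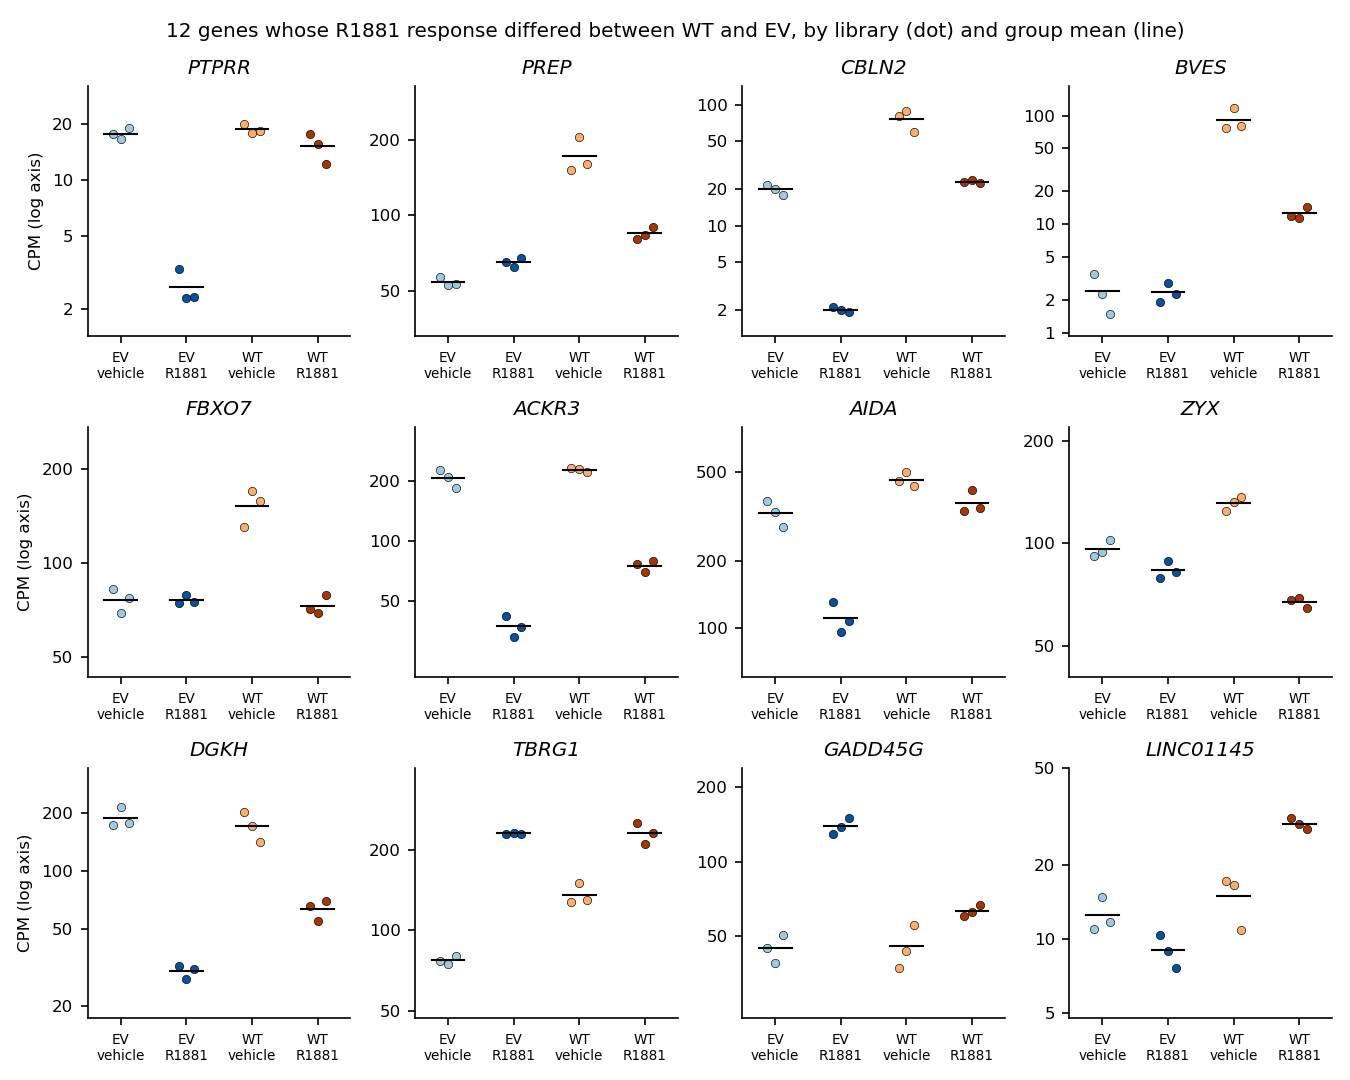
Level in CPM (log axis) of the 12 genes whose calls held whichever library was left out. Each dot is 1 library, each line the mean of 3, and the colours mark the 4 groups. In PTPRR, AIDA, ACKR3, DGKH and CBLN2 the EV libraries with R1881 stand lowest, and in BVES, PREP and FBXO7 the WT libraries with vehicle stand highest.

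The remaining 22 genes lost their call without at least 1 library. SEMA3C, NIPAL3 and MARCKS were called in both states in opposite directions. SEMA3C, a secreted semaphorin that guides cell migration, fell from 32.5, 35.8 and 32.7 CPM to 31.0, 20.5 and 22.6 CPM in EV and rose from 51.0, 53.6 and 40.2 CPM to 78.6, 88.7 and 80.7 CPM in WT. Under R1881 every WT library was thus above every EV library. The difference was 1.22 ± 0.21 (edgeR adjusted p = 0.0111), and the call was lost without EV R1881 library 2 or 3. NIPAL3, a transporter-like membrane protein, fell by 0.43 in EV and rose by 0.42 in WT (difference 0.85). Its call was lost without library 1 or 2 of EV with vehicle, and without library 2 or 3 of EV with R1881. MARCKS, a substrate of protein kinase C at the membrane, rose by 0.38 in EV and fell by 0.30 in WT (difference -0.68), and lost its call without 9 of the 12 libraries.

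SLC2A12, the glucose transporter GLUT12, was the 1 gene among the 34 with a larger response of the same direction in WT. It went from 18.8, 19.2 and 19.7 CPM to 33.5, 29.7 and 31.2 CPM in EV, and from 18.5, 13.3 and 13.0 CPM to 58.8, 45.6 and 46.1 CPM in WT. The difference was 1.04 ± 0.18 (edgeR adjusted p = 0.0145). The call was lost without WT vehicle library 2 or EV R1881 library 2 or 3. SLC2A12 is uncertain, as 38.85% of its exon bases overlap TBPL1 on the other strand.

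A group of 13 genes was called in both states in 1 direction with a smaller response in WT. They include ACKR3, CBLN2, DGKH, TBRG1 and GADD45G, described above. KRT8, a keratin of luminal epithelium, rose from 578, 565 and 679.8 CPM to 1839.5, 2340.2 and 2105 CPM in EV. In WT it rose from 546, 556 and 661 CPM to 1194, 1005 and 1063 CPM. The vehicle levels overlapped and the R1881 levels did not. The difference was -0.90 ± 0.16 (edgeR adjusted p = 0.0145), and the call was lost when library 2 of either R1881 group, or library 1 or 2 of EV with vehicle, was left out. ACAD8, a mitochondrial dehydrogenase of valine breakdown, rose 3.94-fold in EV and 2.10-fold in WT (difference -0.91, edgeR adjusted p = 0.0138), a call that needed library 2 of EV with vehicle and library 2 of EV with R1881.

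SPDEF, an ETS factor of luminal epithelium, rose from 105, 96.4 and 119 CPM to 503, 595 and 575 CPM in EV, and from 78.2, 75.3 and 88.6 CPM to 238, 250.03 and 264 CPM in WT. Its WT libraries lay below its EV libraries under either treatment, and the difference was -0.75 ± 0.14 (edgeR adjusted p = 0.0295). MEIS1, a homeobox protein of the TALE class whose members bind DNA together with HOX proteins, rose from 2.44, 2.18 and 2.82 CPM to 12.5, 15.6 and 13.6 CPM in EV. In WT it rose from 2.91, 5.73 and 3.81 CPM to 9.02, 7.86 and 8.59 CPM. MEIS1 was thus higher in WT with vehicle and lower with R1881 in every library, with a difference of -1.45 ± 0.27 (edgeR adjusted p = 0.0234). Its WT-EV difference with vehicle was not called (0.74 ± 0.20, edgeR adjusted p = 0.114), and the nearest vehicle libraries were 2.91 CPM in WT and 2.82 CPM in EV. NCAPD3, a condensin II subunit, had the strongest rise of the 34 genes. It went from 53.8, 49.99 and 45.8 CPM to 1318, 1542 and 1131 CPM in EV, and from 63.6, 57.4 and 47.8 CPM to 863, 672 and 517 CPM in WT. The rise was 26.7-fold in EV and 12.1-fold in WT (difference -1.14 ± 0.22, edgeR adjusted p = 0.0332).

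The others of the 13 were MPC2, a subunit of the mitochondrial pyruvate carrier (difference -0.75), MAP7D1, a microtubule-associated protein (-0.78), and SOCS2, a feedback inhibitor of cytokine signalling (-1.18). SOCS2 rose 7.83-fold in EV and 3.45-fold in WT. The calls were lost without 6 of the 12 libraries for MEIS1, 7 for SPDEF, 8 for MPC2 and MAP7D1, 9 for NCAPD3 and 10 for SOCS2. Over those omissions the difference stayed between -1.65 and -1.16 for MEIS1, between -0.84 and -0.69 for SPDEF and between -1.34 and -0.98 for NCAPD3. MPC2 is uncertain, with 22.53% of its exon bases shared with DCAF6 on the other strand.

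A response was called in EV alone for 10 genes, among them PTPRR and AIDA. MAP2K6, a kinase that activates p38 MAP kinase, fell from 11.8, 14.96 and 9.61 CPM to 4.56, 5.21 and 3.45 CPM in EV. In WT it was at 13.4, 13.0 and 9.35 CPM with vehicle and at 10.3, 11.4 and 9.56 CPM with R1881, which overlapped. The difference was 1.26 ± 0.25 (edgeR adjusted p = 0.0405). RAB36, a small GTPase, fell 1.996-fold in EV and had a response of -0.09 in WT (difference 0.90). NREP, a protein of neuronal regeneration, fell by 0.57 in EV and had a response of 0.28 in WT (difference 0.85). Of the genes that rose in EV alone, FLJ20021, a long intergenic noncoding RNA, went from 42.9, 35.5 and 56.0 CPM to 93.8, 94.6 and 105 CPM, and was at 49.3, 40.1 and 62.7 CPM in WT with R1881 (difference -1.24). ANKRD37, an ankyrin repeat protein known as a hypoxia target, rose by 1.38 in EV against 0.25 in WT. KAZALD1, TP53INP2 and KLHDC8B had differences of -0.81, -0.78 and -0.78. ANKRD37 is uncertain, since 35.23% of its exon bases overlap UFSP2 on the other strand.

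A response was called in WT alone for 7 genes, 5 of them described above. The other two were PDK3 and PIK3CD. PDK3, a kinase that inhibits pyruvate dehydrogenase, rose in WT from 22.79, 20.04 and 17.2 CPM to 32.3, 32.4 and 28.7 CPM. In EV it was at 19.8, 22.83 and 21.3 CPM with vehicle and 19.2, 18.5 and 18.4 CPM with R1881. The difference was 0.83 ± 0.16 (edgeR adjusted p = 0.0332). PIK3CD, the catalytic delta subunit of phosphoinositide 3-kinase, fell by 0.48 in WT and had a response of 0.23 in EV (difference -0.71). A call in 1 state and not in the other is here backed by the test of the difference itself. The calls were lost without 8 of the 12 libraries for RAB36, NREP and FLJ20021, 9 for ANKRD37, 10 for MAP2K6, PDK3, KLHDC8B and TP53INP2 and 11 for KAZALD1 and PIK3CD.

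The libraries differed in how much rested on them. The fewest of the 34 calls, 5, were lost without WT vehicle library 1, and 8 were lost without EV vehicle library 3. The most, 21, were lost without EV R1881 library 2, followed by 19 without EV vehicle library 2. Leaving out WT R1881 library 2, EV R1881 library 3 or EV vehicle library 1 cost 18 calls each time.

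Read by treatment, the WT-EV difference was called with R1881 and not with vehicle for 25 of the 34 genes. It was called at both treatments for PREP, CBLN2, BVES, ZYX and NIPAL3, and with vehicle only for FBXO7, TBRG1, MARCKS and PIK3CD. A missing call with vehicle does not show that the difference was absent there. Among the 25, the vehicle libraries of WT and EV did not overlap in MEIS1, AIDA, SEMA3C, SPDEF and SLC2A12. MEIS1 differed by 0.74 with vehicle and by -0.71 with R1881. For comparison, 8.70% of all genes were called between WT and EV with R1881 and 0.769% with vehicle.

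The 3A libraries, which the difference does not use beyond their share in the estimate of the spread, gave responses that mostly lay in between. The 3A response was between the EV and WT responses in 33 of the 34 genes and beyond WT in BVES (-2.96 against -2.85 in WT). It was nearer to EV in 24 genes and nearer to WT in 10. PTPRR fell by 1.21 in 3A, from 25.2, 18.5 and 19.9 CPM to 9.88, 9.34 and 8.19 CPM, so these libraries lay above the EV and below the WT libraries with R1881. GADD45G rose by 1.59 in 3A, close to the 1.64 in EV, and KRT8 by 1.76, close to the 1.79 in EV. FBXO7 had a 3A response of -0.32 and PREP of -0.27. The genes were chosen by the distance between EV and WT, and no test was made of the 3A position.

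**Figure D3:**
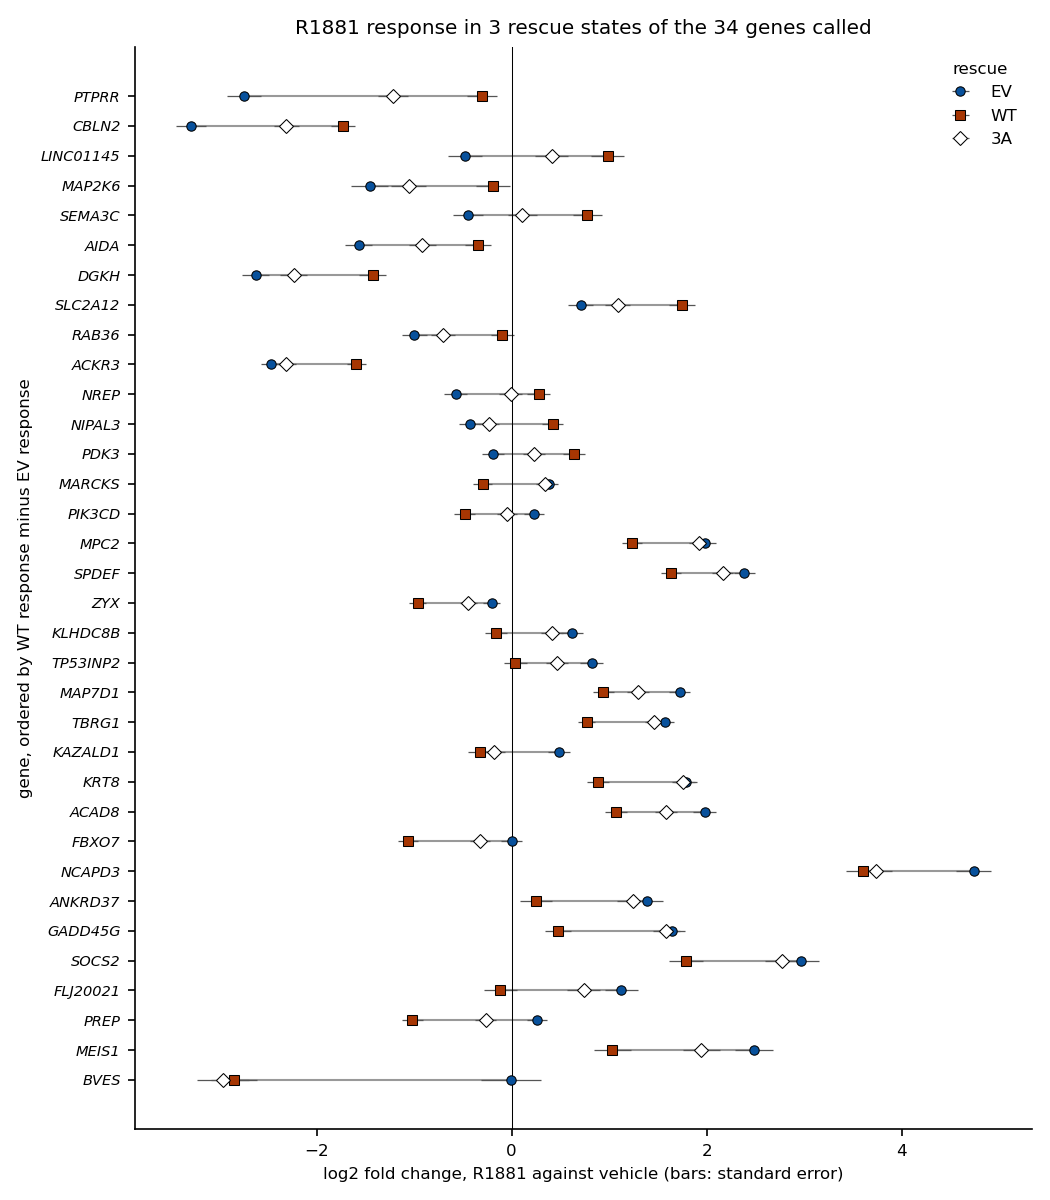
Log2 fold change with R1881 in EV (circles), WT (squares) and 3A (diamonds) for the 34 genes called, ordered by the difference between WT and EV. Horizontal bars are standard errors. The diamonds lie between circle and square in 33 genes, the exception being BVES.

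Beyond single genes, the size of the androgen response was compared over 4202 genes called in the 3A libraries (24.5% of those tested), by their contrast of R1881 against vehicle. The WT and EV libraries do not enter that contrast, but they share in the filter, the scaling and the estimate of the spread behind the calls. Across these genes the WT response followed the EV response with a slope through the origin of 0.83, with a jackknife standard error over libraries of 0.0553. The slope of the principal axis, which treats both responses as measured with error, was 0.89. Pearson's r across genes was 0.92, a description of 4202 genes that share libraries and are not independent replicates. The median absolute response was 0.65 in EV and 0.54 in WT, and it was smaller in WT for 64.8% of the genes. The slope through the origin was 0.87 over genes that rose in 3A and 0.78 over genes that fell. On the principal axis these slopes were 0.94 and 0.88. Without 1 library the principal-axis slopes ran from 0.90 to 1.02 over genes that rose and from 0.79 to 0.96 over genes that fell. The value of 1.02 came without WT vehicle library 1. WT and EV had opposite signs in 225 of the 4202 genes. Leaving out 1 library at a time moved the slope through the origin over all 4202 genes between 0.80 and 0.85.

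Classical androgen targets followed this unevenly. Over 36 androgen-induced genes, the mean log2 CPM was 4.76, 4.79 and 4.75 in EV and 4.73, 4.79 and 4.59 in WT with vehicle. With R1881 it was 7.91, 8.02 and 7.86 in EV and 7.78, 7.71 and 7.53 in WT. The vehicle libraries overlapped, and the WT libraries with R1881 lay below those of EV. The rise was 3.16 in EV and 2.97 in WT, a difference of -0.19. The pooled standard deviation between libraries of a group was 0.09. That value describes single libraries. The error of the difference, which combines 4 group means of 3 libraries, would be larger and was not estimated. Without WT R1881 library 3 the difference was -0.12. Of the 36 genes 26 had a difference below zero, and 0 were called by edgeR. At an unadjusted p under 0.05, 9 of them were lower and 0 higher, beside 926 and 750 of all 17162 tested. DESeq2 called SLC45A3 and FKBP5 as lower. With the replicate number as a block 4 were called, all lower, namely these and RHOU and ACSL3. With no filter on low counts 3 were called. The median was -0.18 against 0.00 over all genes tested, of which 8484 lay below zero and 8672 above.

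The lowest p-values on that list belonged to SLC45A3, a sugar transporter of the prostate, and FKBP5, a co-chaperone of steroid receptors. SLC45A3 went from 51.1, 50.2 and 48.2 CPM to 1131, 1153 and 1029.8 CPM in EV, and from 54.8, 56.0 and 44.7 CPM to 801, 731 and 739 CPM in WT (difference -0.60 ± 0.14, edgeR adjusted p = 0.0744). FKBP5 had responses of 4.98 in EV and 4.35 in WT (difference -0.64 ± 0.16, edgeR adjusted p = 0.113). Other standard targets had differences within about 1 standard error of zero. These were KLK3, which encodes prostate-specific antigen (0.18 ± 0.29), its relative KLK2 (0.21 ± 0.26) and the protease gene TMPRSS2 (-0.06 ± 0.19). They were named after their values had been seen, as were the other list members below that the naming rule does not give. Among 14 androgen-repressed genes ACKR3 alone was called (2 by DESeq2, 3 with no filter on low counts), beside 34 of all 17162 tested. At an unadjusted p under 0.05, 2 of the 14 were higher and 1 lower, beside 750 and 926 of all tested. The list's median was 0.12, from 0.07 without WT R1881 library 3 to 0.19 without EV R1881 library 3. FOXA1, a pioneer factor that opens chromatin at androgen-responsive regions, had a difference of -0.10 ± 0.12.

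Cell cycle genes leaned the other way. The G1/S and DNA replication list held 30 genes, of which 29 had a difference above zero and 0 were called by edgeR. At an unadjusted p under 0.05, 10 of them were higher and 0 lower, beside 750 and 926 of all 17162 tested. DESeq2 and the fit with the replicate block each called 1, SKP2. The median difference was 0.38, from a median response of 0.73 in WT, 0.37 in EV and 0.21 in 3A. Their mean log2 CPM was 4.32, 4.01 and 4.18 in EV and 4.57, 4.54 and 4.38 in WT with vehicle. With R1881 it was 4.73, 4.36 and 4.57 in EV and 5.32, 5.15 and 5.19 in WT. All WT libraries lay above all EV libraries at the same treatment. The 3A libraries lay above both, at 5.36, 5.39 and 5.02 with vehicle and 5.67, 5.38 and 5.435 with R1881. The smaller 3A response thus started from a higher level. SKP2, a ubiquitin ligase subunit that targets p27, had responses of -0.42 in EV and 0.23 in WT (difference 0.64 ± 0.17, edgeR adjusted p = 0.157). MCM4, a subunit of the replicative helicase, had a difference of 0.53 ± 0.19, and MCM3 of 0.43 ± 0.14. The list's median was 0.21 without EV R1881 library 2.

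Of 24 mitotic genes 19 had a difference above zero, and 0 were called by edgeR or DESeq2 (1, KIF20A, with no filter on low counts). At an unadjusted p under 0.05, 4 of them were higher, beside 750 of all 17162 tested. The median of 0.22 was 0.05 without EV R1881 library 2 and 0.39 without EV vehicle library 2. KIF20A, a kinesin of cytokinesis, had the smallest p on the list (0.72 ± 0.27, edgeR adjusted p = 0.379).

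Genes of protein folding in the endoplasmic reticulum (ER) and of the unfolded protein response were mostly raised by R1881. In EV 18 of 21 were called higher and 1 lower, and in WT 11 were called higher and 1 lower, beside 13.2% and 11.0% of all genes called higher. Their mean log2 CPM was 7.45, 7.37 and 7.43 in EV and 7.36, 7.35 and 7.41 in WT with vehicle, which overlapped. With R1881 it was 8.02, 8.06 and 8.02 in EV and 7.77, 7.71 and 7.74 in WT, which did not. Of the 21 genes 18 had a difference below zero, with a median of -0.24. At an unadjusted p under 0.05, 8 of them were lower, beside 926 of all 17162 tested. By edgeR 0 were called. DESeq2 and the fit with the replicate block each called 3 as lower, MANF, CREB3L4 and CALR. MANF, a secreted ER stress protein, went from 48.1, 44.8 and 49.4 CPM to 107, 124 and 112 CPM in EV, and from 46.8, 49.6 and 60.2 CPM to 80.5, 77.4 and 83.3 CPM in WT (difference -0.64 ± 0.15, edgeR adjusted p = 0.0763). CREB3L4, an androgen-responsive membrane-bound transcription factor of the ER, had a difference of -0.71 ± 0.17. The chaperones CALR and HSPA5 had differences of -0.45 and -0.43. Of 21 genes of secretory transport 9 lay above zero and 12 below. At an unadjusted p under 0.05, 2 of them were lower, beside the same 926 of 17162.

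Of 23 sterol synthesis and uptake genes tested, 23 had a difference below zero. By edgeR or DESeq2 0 were called (1, PMVK, with no filter on low counts). At an unadjusted p under 0.05, 4 of them were lower, beside 926 of all 17162 tested. Their median response was 1.07 in EV, against 0.75 in WT and 0.87 in 3A. The median difference was -0.20. The mean log2 CPM with R1881 was 7.18, 7.35 and 7.29 in EV and 7.05, 7.07 and 7.03 in WT, while the vehicle libraries overlapped. Without 1 library up to 5 of the 23 lay above zero. PMVK, the phosphomevalonate kinase, had a difference of -0.60 ± 0.22 and FDPS, the farnesyl diphosphate synthase, of -0.43 ± 0.16. Of 17 fatty acid synthesis genes 13 lay below zero. At an unadjusted p under 0.05, 1 of them was higher and 1 lower, close to the share over all 17162 tested (750 and 926).

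Polyamines are made in quantity by the prostate. Of 11 polyamine genes 4 were lower at an unadjusted p under 0.05, beside 926 of all 17162 tested, and 0 were called by edgeR. DESeq2 and the fit with the replicate block each called 1, ODC1, and 2 were called with no filter on low counts. The list had a median of -0.29, which was -0.20 without EV R1881 library 3. ODC1, the first enzyme of the pathway, went from 699, 589 and 587 CPM to 1592, 1759 and 1702 CPM in EV, and from 607, 629.9 and 677 CPM to 1202, 1249 and 1099 CPM in WT. The vehicle levels overlapped and the R1881 levels did not, and the difference was -0.54 ± 0.13 (edgeR adjusted p = 0.0890). SMS, the spermine synthase, had a difference of -0.62 ± 0.18, and SAT1, the spermidine and spermine acetyltransferase, of -0.54 ± 0.15.

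**Figure D4:**
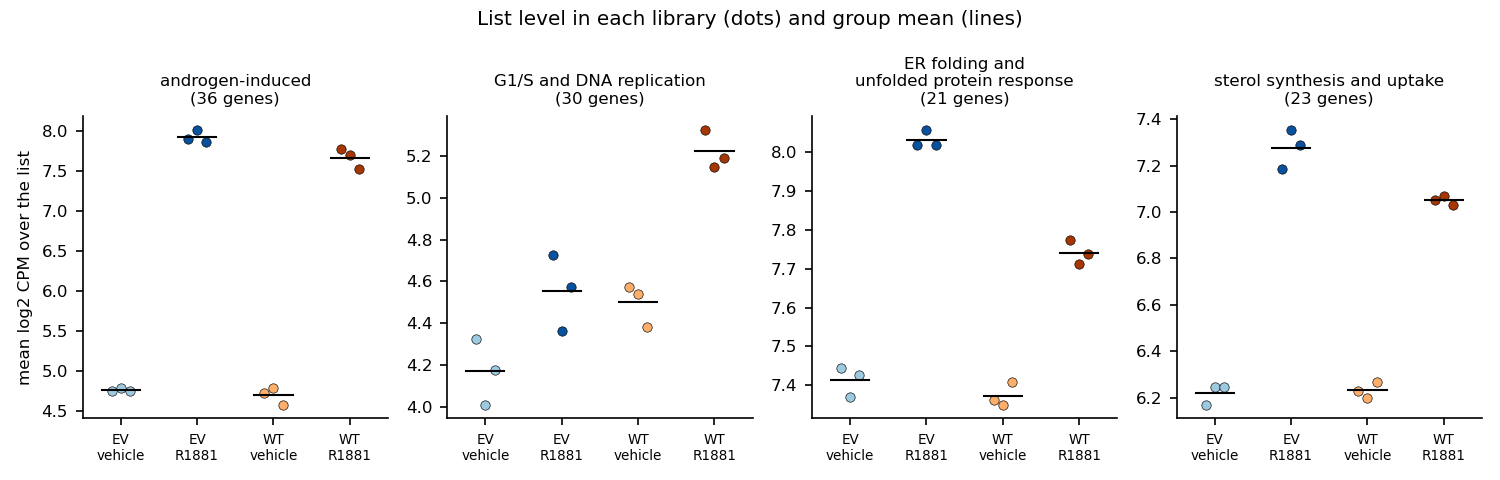
Mean log2 CPM over the members of 4 gene lists in each library (dots, with group means as lines). With R1881 the WT libraries lie below the EV libraries for the androgen-induced, ER and sterol lists and above them for the G1/S list. The vertical axes differ and do not start at 0.

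Luminal epithelial genes held 2 calls among 17, KRT8 and SPDEF, beside 34 of all 17162 tested. At an unadjusted p under 0.05, 4 of the 17 were lower and 0 higher, beside 926 and 750 of all tested. The list's median was -0.10, and -0.04 without WT vehicle library 3. KRT18, the partner of KRT8 in the filament, had a difference of -0.78 ± 0.19 (edgeR adjusted p = 0.0890). It was called by DESeq2, with the replicate block and with no filter on low counts. KRT8 and KRT18 overlap in part, with 7.63% of the exon bases of KRT8 concerned. Of 9 TALE homeobox genes MEIS1 alone was called, and PKNOX2 had a difference of 0.76 ± 0.27. At an unadjusted p under 0.05, 1 of the 9 was higher and 1 lower. Of 21 genes of receptor tyrosine kinase signalling and MAPK feedback PTPRR alone was called, and SPRED1, an inhibitor of the same pathway, had 0.69 ± 0.22. With no filter on low counts EGFR was called too. At an unadjusted p under 0.05, 3 of the 21 were higher and 0 lower. The shares over all genes tested are those given above for the luminal list. Of 26 mTOR pathway genes 13 lay on each side of zero. In edgeR's test of the difference, 0 of 22 ATF4 and amino acid response genes had an unadjusted p under 0.05, beside 1676 of 17162. With no filter on low counts 1 of the 22, NUPR1, was called.

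**Figure D5:**
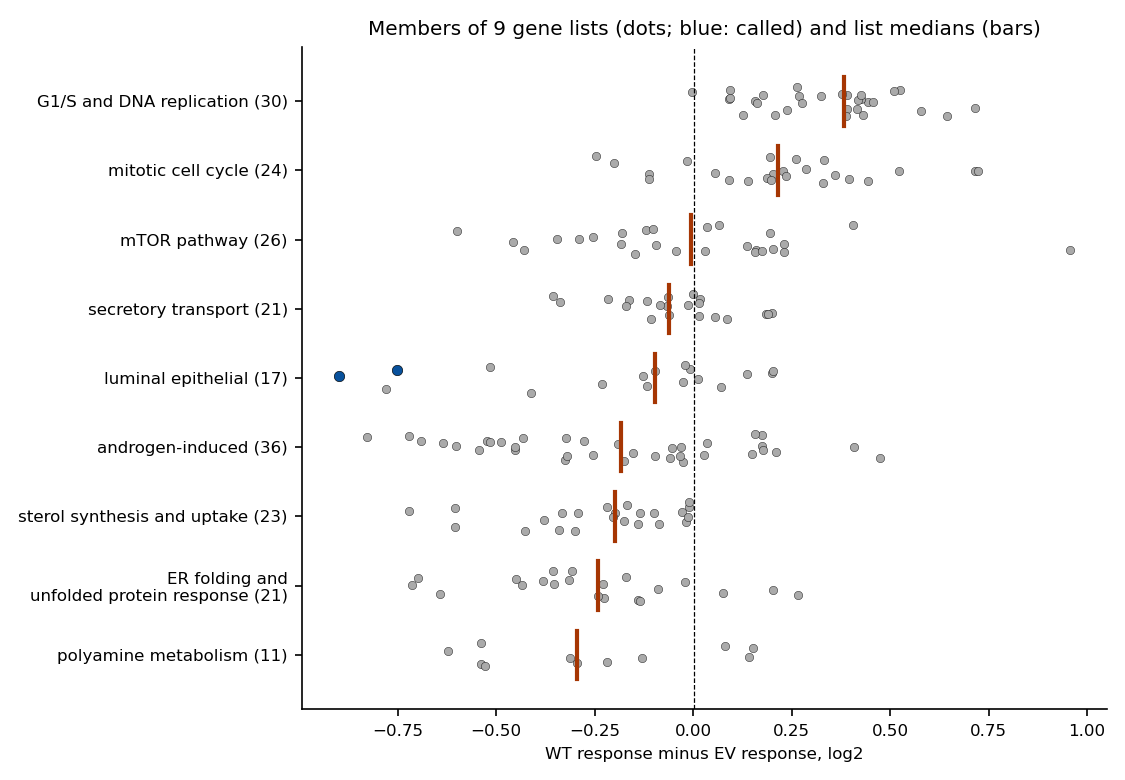
Difference between the WT and EV responses (horizontal axis, log2) for each member of 9 gene lists, with the number tested in brackets. Orange bars are list medians, the dashed line is the median of all genes tested, and the blue dots are KRT8 and SPDEF, the called members. The G1/S dots lie mostly to the right and the sterol dots to the left of the dashed line.

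The bases upstream of the genes' starts were searched for the letters of androgen response elements and of HOXB13 motifs. RefSeq promoters (GRCh38.p14) were matched for 28 of the 34 called genes and for 11016 of the 17162 tested, and the 250 bases before the start were read on both strands. The full palindromic androgen response element, with both half-sites 3 bases apart, was in 0 promoters of either set. A half-site, AGAACA or TGTTCT, was in 1 of the 28 (3.57%) and in 7.44% of all matched promoters. The HOXB13 letters CAATAAA or TTTATTG were in 1 of the 28 (3.57%) and in 2.13% of all. The half-site and the palindrome overlap in their letters. The matches were in MAP2K6 (chr17:69414447-69414696, plus strand) and in NREP (chr5:111976933-111977182, minus strand, within the span of the gene's longer models), shown because they are the only ones, with the matched letters in capitals, 233 and 75 bases before the start. A match is a description of letters, not of a site in use.
MAP2K6: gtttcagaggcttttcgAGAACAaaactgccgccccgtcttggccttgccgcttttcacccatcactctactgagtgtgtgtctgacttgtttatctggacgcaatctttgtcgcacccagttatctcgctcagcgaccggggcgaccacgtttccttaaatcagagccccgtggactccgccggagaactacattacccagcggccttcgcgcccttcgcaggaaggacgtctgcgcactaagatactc
NREP: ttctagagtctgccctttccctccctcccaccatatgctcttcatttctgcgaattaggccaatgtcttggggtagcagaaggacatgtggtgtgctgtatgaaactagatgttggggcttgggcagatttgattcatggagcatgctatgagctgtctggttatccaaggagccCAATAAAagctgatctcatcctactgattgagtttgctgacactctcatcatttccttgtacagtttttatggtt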

How the data were processed

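RNA from 18 LNCaP libraries was sequenced as paired-end reads after preparation with a NEBNext Ultra II RNA kit, per the labels' protocols. The authors deposited whole-read counts for 58735 genes, identified by Ensembl IDs per the file headers. Their second table, of FPKM, was not used. The build was hg38, and the submitters' processing notes list featureCounts 1.5.0-p3 and HISAT2 2.0.5. Which annotation release was used, and how strand and multi-mapping reads were treated in counting, is not given in the sources used here.

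Libraries were grouped by sample title. Counts were tested with edgeR 4.0.16 in R 4.3.3: filterByExpr (minimum count 10, minimum total 15), TMM scaling, and quasi-likelihood fits over all 18 libraries with group as the only term. The contrast was the WT response minus the EV response, adjusted by Benjamini-Hochberg over 17162 genes. Standard errors come from the F statistic, and intervals are at 95%. List levels use log2 CPM with a prior count of 2. On simulated counts for 16931 genes, 9 of 67 genes with responses that differed 1.5-fold, 30 of 67 at 2-fold and 55 of 66 at 4-fold were recovered, with 6 false calls. Exon overlaps come from GENCODE 29, in which the coordinates of all 56 named genes are the same. Counts have no molecular identifiers, so the depth of 22812641 to 30611980 reads over the 18 libraries does not cover amplification.

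The naming rule took HOXB13, the protein-coding called genes of at least 1 CPM on average (15 by p in either direction), up to 4 genes of each class of responses, up to 4 called members of each of 27 lists (or the member with the smallest p), up to 5 noncoding called genes, and BVES, POPDC3 and PREP. KLHDC8B, ANKRD37, PIK3CD, SOCS2 and TP53INP2 are named beyond it because they were called. A few list members are not reported here; counts and list values include them. The members and lists were chosen with earlier results of these data known, and no list was tested as a set. Alternatives were RLE size factors, DESeq2 1.42.0, limma 3.58.1 with voom, 2 other filters, the 12 libraries alone, a replicate block and leaving out each library in turn.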

Additional observations from a re-analysis of the deposited data

Results flagged for a closer look

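The 34 genes below stand out because the test of the difference between the R1881 responses in WT and EV passed the threshold. The value beside each is the WT response minus the EV response on the log2 scale.

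The calls that held without any 1 library were higher in WT for PTPRR (2.44), CBLN2 (1.56), LINC01145 (1.47), AIDA (1.22), DGKH (1.20) and ACKR3 (0.87). They were lower in WT for BVES (-2.85), PREP (-1.28), GADD45G (-1.16), FBXO7 (-1.06), TBRG1 (-0.81) and ZYX (-0.76).

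The calls lost without at least 1 library were higher in WT for SEMA3C (1.22), NIPAL3 (0.85), SLC2A12 (1.04), RAB36 (0.90), PDK3 (0.83), NREP (0.85) and MAP2K6 (1.26). They were lower in WT for ACAD8 (-0.91), KRT8 (-0.90), MEIS1 (-1.45), SPDEF (-0.75), NCAPD3 (-1.14), FLJ20021 (-1.24), MPC2 (-0.75), MAP7D1 (-0.78), KAZALD1 (-0.81), MARCKS (-0.68), KLHDC8B (-0.78), ANKRD37 (-1.14), PIK3CD (-0.71), SOCS2 (-1.18) and TP53INP2 (-0.78). For each of these 22 genes the number of libraries whose omission ended the call ranged from 2 to 11 of 12. It was 2 for SEMA3C and ACAD8 and 11 for KAZALD1 and PIK3CD.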

How the results depend on the processing

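Of the 34 calls for the difference between the WT and EV responses, 19 held in all 7 alternatives that kept every library of the 4 groups, and 12 held in each of these and without any 1 library. DESeq2 called 151 genes (61 higher, 90 lower), no filter on low counts 226 (65 and 161) and the replicate block 133 (53 and 80), each with all 34 among them. The 12 libraries alone gave 21 (10 and 11), with 20 of the 34 among them, limma voom 29 and RLE size factors 30. Leaving out 1 library gave 13 to 52 genes, 6 to 21 of them higher and 6 to 31 lower. For WT against EV with vehicle, 132 genes became 236 by DESeq2, 325 with no filter, 270 with the replicate block, 64 with the 6 libraries alone and 66 to 187 without 1 library. With R1881, 1493 became 2709 with the block, 2366 with the 6 libraries alone and 601 to 1754 without 1 library. The cause of these shifts was not tested. The slope and the androgen-induced level moved by less than their spread between libraries. Those spreads were computed from the same libraries. A smaller move on leaving 1 library out was therefore close to fixed in advance, and no conclusion is drawn from it. As a check of the replicate block, the deviations of same-numbered libraries correlated over 0.1 in 12 of 18 pairs of libraries, and in every pair for 2 of 6 pairs of groups (EV vehicle with EV R1881, and with WT R1881). The numbers were not taken to pair all 4 groups, since that was set to need every pair over 0.1, although 11 of 12 libraries correlated best with their own number, a hint from the data and not from the design. At these depths, with 3 libraries a group, 9 of 67 simulated 1.5-fold differences were recovered, and depth and group size were not varied apart.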
